A study of Mus musculus with 6 samples.

Results

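The genes described here belong to the unfolded protein response and the integrated stress response, and they were followed in liver RNA of wild-type mice (WT, 3 libraries) and of mice labelled CRY1 KO (3 libraries). They are the 10 rows of the deposited table, out of 15092 genes, whose symbol is Atf4, Ddit3, Sesn2, Asns, Trib3, Xbp1, Hspa5, Hsp90b1, Pdia4 or Creld2. All 10 were found, and all 10 passed the filter on low counts that left 13816 genes for testing. Both groups are of the C57BL/6J strain, and the labels name the tissue as liver and the cell type as hepatocyte. The design text calls the second group a knockout of CRY1, a repressor of the circadian clock, and names no other allele or agent. Every sample title carries the prefix NC, which the labels do not explain, and no age, sex, time of day, feeding state or knockout strategy is given. Whether each replicate was another animal is not stated in the labels. The p-values therefore measure only the spread among these libraries, some of which may be technical.

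Proteins that enter the secretory pathway fold in the endoplasmic reticulum (ER), and hepatocytes, which secrete most plasma proteins, carry a large load of them. When unfolded protein builds up, the ER sensors PERK, IRE1 and ATF6 respond. IRE1 splices the Xbp1 messenger RNA, ATF6 is cut to release a transcription factor, and together these raise the genes of ER chaperones. PERK, like the kinases that sense lack of amino acids, haem deficiency or double-stranded RNA, phosphorylates the translation factor eIF2, which lowers most translation but raises that of ATF4, a transcription factor for genes of amino acid supply and stress adaptation. The values here are RNA levels of whole genes. They do not report the phosphorylation of eIF2, the amount of ATF4 protein or the spliced share of Xbp1.

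Library totals ran from 79708703 to 91316332 estimated counts. The level of Cry1 itself did not separate the groups, with 6.31 ± 1.32 CPM (counts relative to the scaled library size) for WT and 6.19 ± 0.88 CPM for CRY1 KO (SD, n = 3 each; exact two-sided permutation p = 0.9, where 0.1 is the smallest p possible). A whole-gene value cannot show whether particular exons are missing, so the label is not checked by it, and each direction below compares groups as they are labelled. On the first principal component (34.2% of the variance) WT 1, 2 and 3 lay at -12.1, -48.3 and -23.9. The libraries labelled CRY1 KO lay at 23.2 to 32.5, so WT 2 was the farthest out. WT 1 stood apart from the other libraries on the second component (22.6%), at 48.8, against -32.4 to 4.81. Values without WT 1 are given below. The 5 hepatocyte markers (3 positive and 2 negative, with 0 called) summed to 62726 to 70267 CPM in WT, and in CRY1 KO to 69567 to 79099 CPM. Most of each sum was Alb, at 45886 to 54652 CPM in WT, against 53549 to 62772 CPM in CRY1 KO, with overlapping groups. Markers of blood and immune cells were also present, with levels given beside the results. Over all genes, edgeR's quasi-likelihood test called 235 of 13816 genes at an adjusted p under 0.05 (1.70%), with 146 higher (1.06%) and 89 lower (0.644%) in CRY1 KO. With WT 1 left out the test called 565 genes, with WT 2 left out 17 and with WT 3 left out 844, and with 1 library labelled CRY1 KO left out it called 20 to 40. With upper-quartile scaling the split was 116 higher and 111 lower, and with no scaling beyond the library total 59 higher and 54 lower.

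The members differ in the known control elements near their start sites, shown here because the chaperone genes and the ATF4 targets are read separately below. The ER stress element, which ATF6 binds with NF-Y and which reads CCAAT, 9 bases of any kind and CCACG, was searched on both strands of the 300-base windows (250 bases before and 50 after the start) of the RefSeq promoter table, build GRCm38.p6. It was found in the windows of Hspa5, Hsp90b1 and Creld2 and in 0.119% of all 32817 windows. The C/EBP-ATF element, TGATGNAA, through which ATF4 acts, was found before the start of Asns and after that of Trib3, and in 3.97% of all windows. The UPR element TGACGTGG (0.676% of all windows) and the E-box CACGTG (7.15%), which the clock factors bind, matched in 0 of the 10 windows. A window without a match says only that these letters are not in it. The stretches with a match before the start are printed 5′ to 3′ on the strand of the gene, with the fixed letters of the ER stress element, or the whole C/EBP-ATF element, in capitals. In Hsp90b1 the second match, and in Creld2 the only one, lies on the opposite strand.
Hspa5 (chr2:34772005-34772063, plus strand): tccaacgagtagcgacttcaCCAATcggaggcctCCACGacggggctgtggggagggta
Hsp90b1 (chr10:86705513-86705676, minus strand): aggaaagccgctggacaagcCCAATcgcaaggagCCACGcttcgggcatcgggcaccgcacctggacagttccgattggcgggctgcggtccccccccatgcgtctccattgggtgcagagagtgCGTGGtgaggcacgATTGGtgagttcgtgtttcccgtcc
Creld2 (chr15:88819500-88819558, plus strand): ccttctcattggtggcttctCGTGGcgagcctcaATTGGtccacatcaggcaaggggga
Asns (chr6:7693210-7693252, minus strand): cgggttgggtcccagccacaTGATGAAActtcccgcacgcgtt

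Among the genes of the ATF4 branch, the RNA of Atf4 fell in CRY1 KO while that of Sesn2, one of its targets, rose, and Ddit3 was higher in all 3 libraries without passing the test. Asns and Trib3 did not separate the groups. Of these 5 members 1 rose and 1 fell past the threshold, where 1.06% and 0.644% of all tested genes did so, and 3 had groups that did not overlap, where 27.3% of all tested genes did so. The median log2 difference of the 5 was -0.044, beside -0.019 over all tested genes. With so few genes, chosen with earlier results of these data known, these are given as a description.

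Atf4 encodes the transcription factor at the centre of the integrated stress response. Its level was 105.5, 117.0 and 96.9 CPM in WT 1, 2 and 3 and 72.3, 73.3 and 74.3 CPM in CRY1 KO 1, 2 and 3. Every library labelled CRY1 KO lay below every WT library, and those 3 libraries lay close together. The mean of WT was 106.5 ± 10.1 CPM and that of CRY1 KO 73.3 ± 0.98 CPM (SD, n = 3 each), which gave a log2 difference of -0.54 (SE 0.09, 95% interval -0.75 to -0.33; edgeR adjusted p = 0.0349). The fold against WT was 0.689.

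Sesn2 encodes sestrin 2, a leucine-binding protein that restrains the growth kinase complex mTORC1. It stood at 7.35, 4.995 and 7.21 CPM in WT 1, 2 and 3 and at 10.96, 11.8 and 12.7 CPM in CRY1 KO 1, 2 and 3. The groups did not overlap, and Sesn2 rose 1.81-fold (log2 0.86, SE 0.16, 95% interval 0.48 to 1.23; edgeR adjusted p = 0.0457). Ddit3 encodes CHOP, a transcription factor of prolonged ER stress that acts downstream of ATF4. It stood at 4.84, 3.82 and 4.42 CPM in WT 1, 2 and 3 and at 7.95, 6.27 and 8.39 CPM in CRY1 KO 1, 2 and 3. Here too the groups did not overlap, and the log2 difference was 0.79 (SE 0.17, 95% interval 0.41 to 1.17), but it missed the threshold over all genes (edgeR adjusted p = 0.0531). Exons of Ddit3 and of the methionyl-tRNA synthetase gene Mars1 share 68 of 1713 bases on opposite strands in GENCODE M21. Whether the authors' counting used strand is not given in the sources used here. Some reads counted for Ddit3 could therefore belong to Mars1, and how many was not tested. Mars1 had a much higher level than Ddit3, at 53.3 to 61.9 CPM in WT, against 48.6 to 51.5 CPM in CRY1 KO (log2 difference -0.21).

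**Figure D1:**
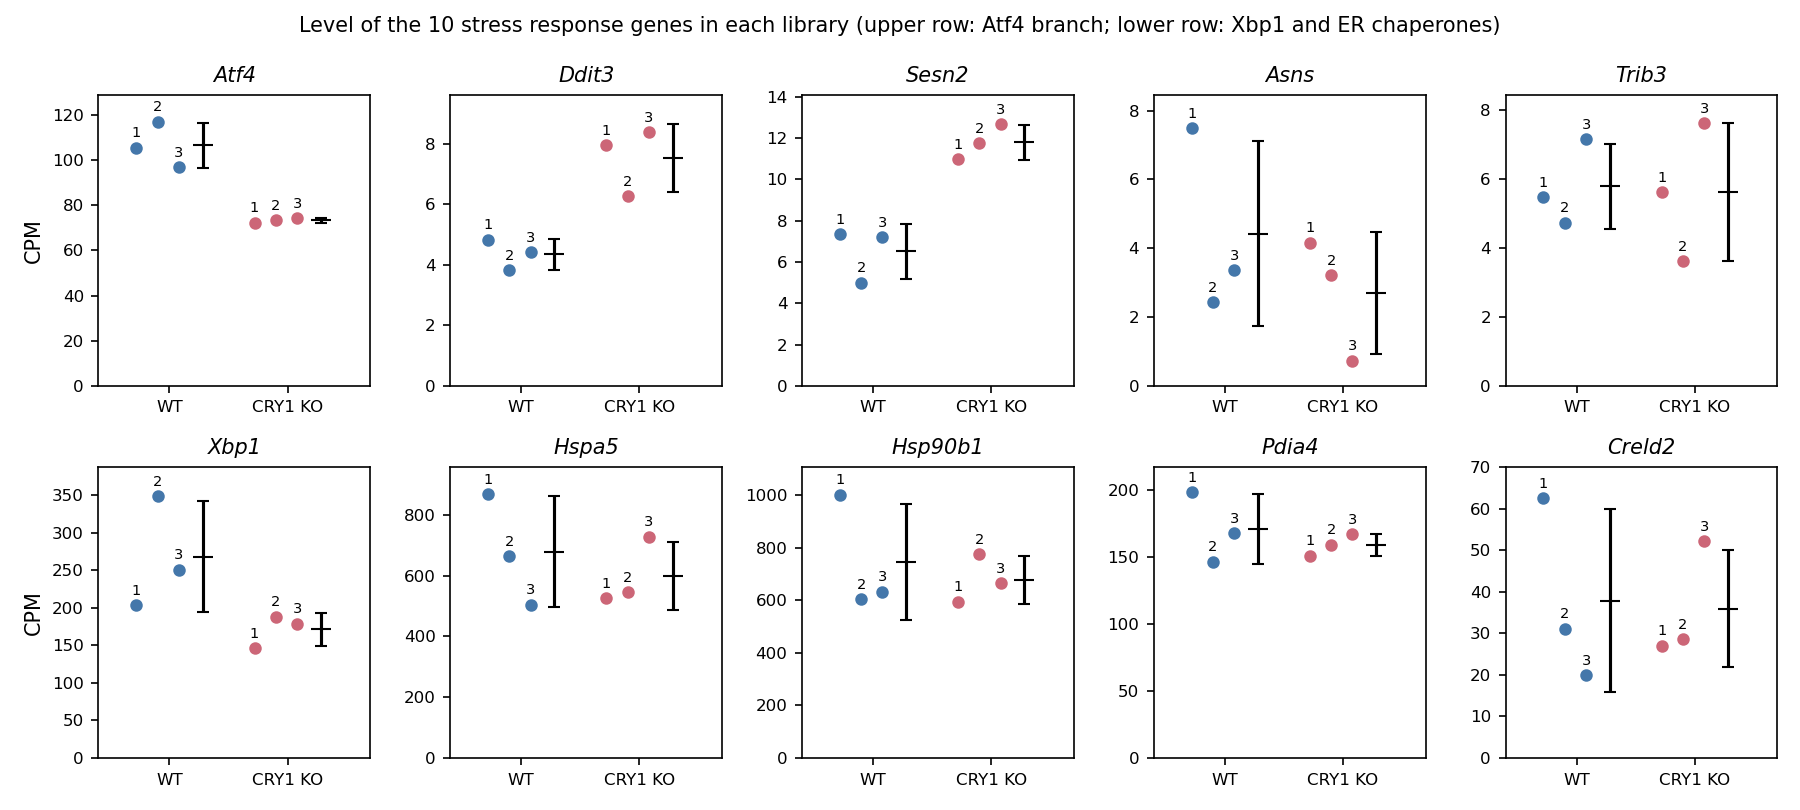
Level of each of the 10 genes (y axis, CPM, starting at 0) in the 3 WT libraries (blue) and the 3 libraries labelled CRY1 KO (red); numbers are replicates, and black bars are group mean ± SD. The groups do not overlap for Atf4 and Xbp1, which lie lower in CRY1 KO, or for Ddit3 and Sesn2, which lie higher, while for the other 6 genes they overlap.

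Asns encodes asparagine synthetase, the enzyme of the classical amino acid response. It ranged from 0.728 CPM in CRY1 KO 3 to 7.49 CPM in WT 1, a 10.3-fold range over the 6 libraries. In estimated counts the WT libraries held 644, 204 and 323 and the libraries labelled CRY1 KO 336, 262 and 62. The spread within each group was larger than the difference between them (log2 -0.71, SE 0.72, 95% interval -2.48 to 1.06; edgeR adjusted p = 0.620). The difference was -0.10 without WT 1, -0.26 without CRY1 KO 3 and -1.16 without CRY1 KO 1. Trib3 encodes a pseudokinase that ATF4 and CHOP induce and that restrains both AKT and ATF4. Its levels were 5.47, 4.73 and 7.15 CPM in WT, against 5.61, 3.62 and 7.61 CPM in CRY1 KO, so the groups overlapped (log2 -0.044, 95% interval -0.68 to 0.59). The difference turned to 0.14 without WT 3 and 0.19 without CRY1 KO 2.

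Both calls in this branch held without WT 1 or WT 3 and were lost without any of the other 4 libraries. The adjusted p of Atf4 by edgeR was 0.139 when WT 2 was left out, 0.119, 0.156 and 0.152 when CRY1 KO 1, 2 and 3 were, each in turn, and 0.0596 without scaling. For Sesn2 these values were 0.131 for WT 2 and 0.107, 0.169 and 0.185 for CRY1 KO 1, 2 and 3, and the adjusted p was 0.0777 without scaling, 0.0502 with upper-quartile scaling and 0.0531 by limma-voom. Without WT 1, Ddit3 passed as well (log2 0.87, adjusted p = 0.0384). DESeq2, which called 9.06% of all tested genes, called Atf4, Sesn2 and Ddit3 (adjusted p = 0.00115 for Ddit3).

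In the ER branch 0 of the 5 members passed the edgeR test, and their median log2 difference was -0.14. Xbp1 alone had an unadjusted p under 0.05, a mark that 20.7% of all tested genes reached, and alone was called by DESeq2, while limma-voom called 0 of the 5. Xbp1 encodes the transcription factor that IRE1 activates by splicing. It stood at 203.9, 348.9 and 251.0 CPM in WT 1, 2 and 3 and at 146.1, 188.3 and 179.1 CPM in CRY1 KO 1, 2 and 3. The groups did not overlap, but WT 1 lay only slightly above CRY1 KO 2. The log2 difference was -0.65 (SE 0.20, 95% interval -1.11 to -0.19; edgeR adjusted p = 0.132). Without WT 1 it was -0.81 and passed (adjusted p = 0.0354), and by DESeq2 the adjusted p was 0.0173.

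Markers of Kupffer cells, plasma and B cells and neutrophils had negative differences, as Atf4 and Xbp1 did, though of these only 1 marker of plasma and B cells passed the edgeR test. All 9 Kupffer cell markers had negative differences, with 0 called. Their summed level was 630.2, 394.4 and 245.4 CPM in WT 1, 2 and 3, against 224.6 to 226.4 CPM in CRY1 KO. WT 1, the highest library for this sum, was the lowest WT library for Xbp1 (203.9 CPM, against 348.9 and 251.0 CPM in WT 2 and 3). All 6 tested markers of plasma and B cells, a lineage with high Xbp1, had negative differences too, with 1 called and sums of 8.50 to 13.7 CPM in WT, against 3.33 to 4.53 CPM in CRY1 KO. The 3 tested neutrophil markers also had negative differences, with 0 called. With Mpo, which did not pass the filter on low counts, they summed to 1.07 to 4.62 CPM in WT, against 0.455 to 0.954 CPM in CRY1 KO, and S100a8 was at 0 in CRY1 KO 3. Endothelial markers (3 positive and 2 negative) summed to 143.4 to 147.9 CPM in WT, against 130.0 to 159.9 CPM in CRY1 KO, and stellate cell markers (1 positive and 4 negative) to 128.2 to 199.5 CPM, against 132.0 to 162.6 CPM, so that both overlapped. Red cell markers (1 positive and 4 negative, with 0 called) summed to 654.1 to 2971 CPM in WT, against 581.0 to 734.8 CPM in CRY1 KO. The part of all these cells in the differences of Atf4 and Xbp1 was not tested. In bulk RNA, fewer cells of a type and less RNA per cell cannot be told apart.

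For each of the 4 chaperone and folding genes the group means lay closer together than the SD of the WT libraries. Hspa5 encodes BiP, the main Hsp70 chaperone of the ER and a brake on its sensors. Its level was 868.1, 664.2 and 504.9 CPM in WT, against 525.5, 546.3 and 728.7 CPM in CRY1 KO, so both the highest and the lowest library were WT. The log2 difference was -0.18 (95% interval -0.67 to 0.31; edgeR adjusted p = 0.669). Creld2 encodes a small ER-resident protein induced through ATF6. It stood at 62.5, 31.1 and 19.9 CPM in WT, against 27.0, 28.6 and 52.1 CPM in CRY1 KO, a 3.13-fold range. The log2 difference was -0.076 (95% interval -1.36 to 1.21). The 6 libraries stood in the same order for Creld2 as for Hspa5: WT 1, CRY1 KO 3, WT 2, CRY1 KO 2, CRY1 KO 1 and WT 3. Hsp90b1, which like them carries the ER stress element printed above, stood in another order.

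Hsp90b1 encodes GRP94, the Hsp90 of the ER. It was measured at 1003, 605.5 and 633.8 CPM in WT, against 595.6, 775.7 and 665.2 CPM in CRY1 KO. WT 1 was the highest, WT 2 and WT 3 lay among the libraries labelled CRY1 KO, and the log2 difference was -0.14 (95% interval -0.61 to 0.33; edgeR adjusted p = 0.735). Pdia4 encodes ERp72, a protein disulfide isomerase. It was the steadiest of the 4, at 198.7, 146.8 and 168.0 CPM in WT, against 151.0, 159.5 and 167.5 CPM in CRY1 KO (log2 -0.10, 95% interval -0.38 to 0.17). For Hspa5, Hsp90b1 and Pdia4 the 95% interval leaves out a log2 difference of 1 in either direction, and for Creld2 it does not. Without WT 1 the sign of all 4 turned, to 0.038 for Hspa5, 0.13 for Hsp90b1, 0.018 for Pdia4 and 0.49 for Creld2, and 0 of them passed in any fit.

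**Figure D2:**
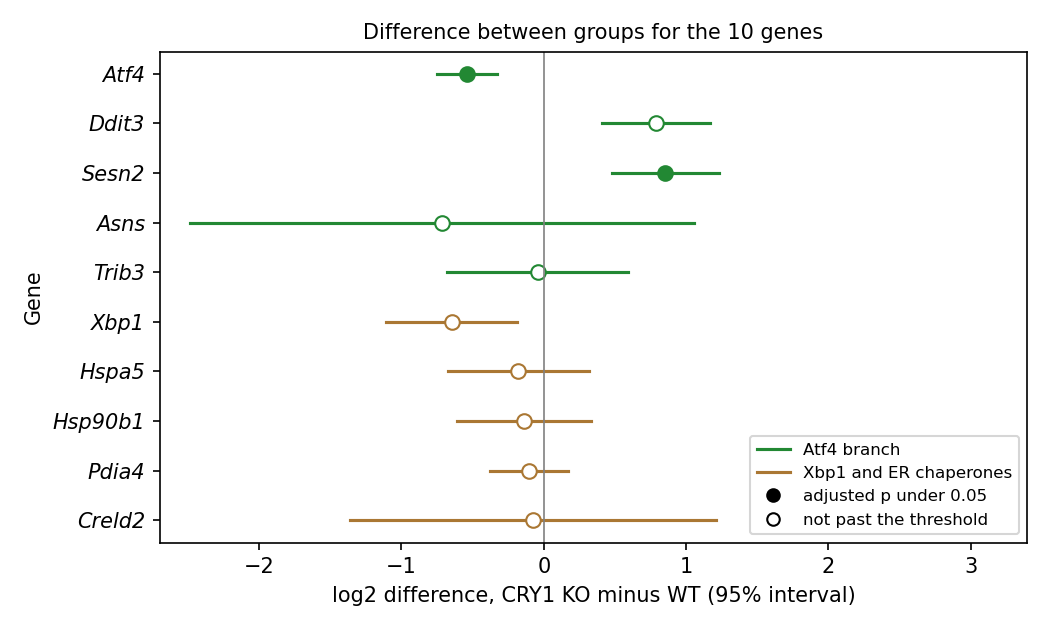
Log2 difference of CRY1 KO minus WT (x axis) with its 95% interval for each gene (y axis), with the ATF4 branch in green and Xbp1 and the chaperones in brown; filled points passed the edgeR test. Atf4 at -0.54 and Sesn2 at 0.86 are filled, the intervals of Ddit3 and Xbp1 also leave out 0, and those of the other 6 genes include it.

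For most chaperones the highest library was WT 1, whatever the order of the others. Of 26 genes (the 4 members and 22 further chaperones and folding enzymes), 17 had their highest level in WT 1, 6 in CRY1 KO 3, 2 in CRY1 KO 2 and 1 in WT 2. The share of all tested genes with WT 1 highest is not given here, so this is not shown to be particular to chaperones. The list of ATF4 targets read below also had its highest median in WT 1. Its log2 deviation from the gene mean was 0.195 there, against -0.117 to 0.051 in the other libraries. In 9 of the 17, CRY1 KO 2 came next. These 9 included Hsp90b1, the lectin chaperone gene Calr and the disulfide isomerase genes Pdia3, Pdia6 and P4hb. P4hb reached 1442 CPM in WT 1 and, next, 1237 CPM in CRY1 KO 2, against 1021 to 1136 CPM in the other libraries. Hyou1, which encodes the nucleotide exchange factor of BiP, had CRY1 KO 3 (229.8 CPM) and WT 1 (210.7 CPM) as its highest libraries, the same pair as Hspa5 and Creld2, and lay between 109.0 and 157.8 CPM elsewhere. Manf, which encodes a secreted ER stress factor, was highest in WT 1 (116.8 CPM) and had 54.9, 51.2 and 80.7 CPM in CRY1 KO. These genes beyond the members were picked after their values were seen. WT 1 was also the library with the highest summed levels of Kupffer markers and of red cell markers (2971 CPM, against 581.0 to 1023 CPM in the others).

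**Figure D3:**
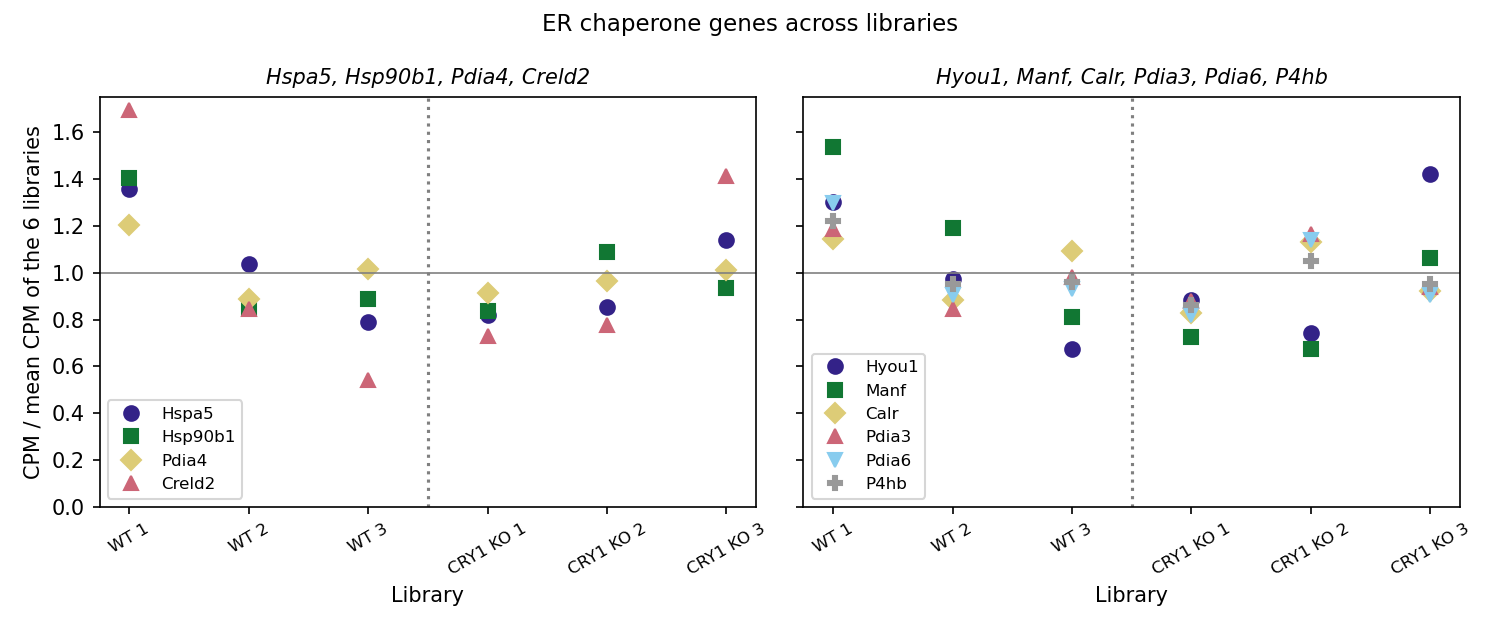
Level of 10 ER chaperone and folding genes in each library (x axis), divided by the mean of the gene over the 6 libraries (y axis, starting at 0), with the 4 members on the left and 6 others on the right. WT 1 lies above the mean of 1 for all 10 genes, and the groups overlap for each gene. The 6 on the right were picked after their values were seen, and this does not hold for all chaperones listed. For Dnajb9, not drawn, the groups lay apart, with 44.7 CPM in WT 1, against 72.7 to 139.5 CPM in CRY1 KO.

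The other genes of the pathway were read from lists of 133 entries, all matched in the table. In the list of ATF4 targets, which leaves out the members, 2 of 47 tested genes fell by edgeR and 0 rose, against 0.644% and 1.06% of all tested genes. The median log2 difference was -0.062, beside -0.019 over all tested genes, and 11 of the 47 had groups that did not overlap, where 27.3% of all tested genes did so. Slc1a4, a transporter of serine, alanine and other neutral amino acids, fell from 7.95, 5.97 and 4.35 CPM in WT to 2.02, 2.29 and 1.30 CPM in CRY1 KO (log2 -1.703, SE 0.29; edgeR adjusted p = 0.0346). Its fall was already known from these libraries when the list was written. Atf5, which encodes a transcription factor controlled at translation much as ATF4 is, fell from 243.9, 183.7 and 204.8 CPM to 144.7, 144.3 and 133.3 CPM (log2 -0.58, SE 0.12; edgeR adjusted p = 0.0494). In both genes every library labelled CRY1 KO lay below every WT library.

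Those falls, too, held without WT 1 or WT 3 only. Leaving out WT 2, the adjusted p was 0.132 for Slc1a4 and 0.104 for Atf5, and leaving out CRY1 KO 1, 2 and 3 it was 0.101, 0.107 and 0.134 for Slc1a4 and 0.129, 0.176 and 0.193 for Atf5. By limma-voom 0 of the 47 passed (0.0564 and 0.0611 for these genes), and with RLE scaling Atf5 stood at 0.0507. Without WT 3 the number called was 4 (1 higher and 3 lower), and without WT 2 or any library labelled CRY1 KO it was 0. Without WT 1 it was 6, and the split turned from 0 higher and 2 lower to 4 higher and 2 lower. Calls over all tested genes grew as well. They numbered 565 of 13987 without WT 1 (359 higher and 206 lower) and 844 of 13976 without WT 3 (477 higher and 367 lower). The 4 higher genes of the list without WT 1 were Ddit4, the transcription factor gene Cebpb, the alanine aminotransferase gene Gpt2 and the glutamine transporter gene Slc38a2. These fall outside the naming rule and were named after their values were seen. Without WT 1 their log2 differences were 2.099, 0.75, 0.87 and 0.97 (edgeR adjusted p = 0.00112, 0.0118, 0.00720 and 0.00919). With all 6 libraries those of Ddit4, Cebpb and Slc38a2 were 0.26, 0.14 and 0.33, with WT 1 as the highest library of each. That of Gpt2 was 0.64 (edgeR adjusted p = 0.113), and DESeq2 called it.

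Among the other groups of ATF4 targets, 0 of 13 genes of tRNA charging passed by edgeR, with 4 at an unadjusted p under 0.05, 1 by DESeq2 and 0 by limma-voom. Over all tested genes the unadjusted p was under 0.05 for 20.7%, and DESeq2 called 9.06%. The leucyl-tRNA synthetase gene Lars had a difference of -0.36 (adjusted p = 0.109, and 0.0422 without WT 3). Xpot, which encodes the exportin of tRNA from the nucleus, lay the other way at 0.39 (adjusted p = 0.0515), at 51.4 to 51.7 CPM in WT, against 64.9 to 72.4 CPM in CRY1 KO. It passed by DESeq2 (0.00217), at a minimum count of 50 (0.0489) and without WT 3 (0.0437). Fgf21, the hepatokine released in fasting and stress, had low levels of 0.500, 0.131 and 0.375 CPM in WT, against 0.756, 0.922 and 1.29 CPM in CRY1 KO. Its difference of 1.56 was not called by edgeR (adjusted p = 0.135) but was called by DESeq2. Ddit4, an mTORC1 inhibitor gene induced by stress, had 18.9 CPM in WT 1, 2.24 and 2.09 CPM in WT 2 and 3 and 8.26 to 9.85 CPM in CRY1 KO, so WT 1 lay above and the other WT libraries below those labelled CRY1 KO. Its difference was 0.26 with WT 1 (edgeR adjusted p = 0.909) and passed as higher without it, as given above.

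In the list of 54 further genes of the unfolded protein response 0 passed by edgeR, with 7 at an unadjusted p under 0.05 (20.7% over all tested genes), 4 called by DESeq2 (9.06%) and 1 by limma-voom. The median difference was -0.050, and 8 of 54 had groups that did not overlap, beside 27.3% of all tested genes. The 13 genes of ER-associated degradation, which exports misfolded protein to the proteasome, included 10 with positive differences and 5 with groups that did not overlap, each higher in CRY1 KO. Over all tested genes 6537 of 13816 differences were positive and 14.6% had groups apart with CRY1 KO higher, and 0 of the 13 passed the edgeR test. The 22 chaperones had 13 negative differences and the 19 genes of translocation and secretory transport 14.

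Herpud1 encodes a membrane scaffold of that degradation pathway. It stood at 361.3, 161.9 and 178.3 CPM in WT, against 711.7, 663.4 and 894.1 CPM in CRY1 KO. The groups were far apart, with a log2 difference of 1.69 (SE 0.34, 95% interval 0.86 to 2.53), but the edgeR adjusted p was 0.0711. It passed without WT 1 (2.15, adjusted p = 0.000857), by DESeq2 (0.00185) and by limma-voom (0.0431). Dnajb9, which encodes the BiP partner ERdj4, stood at 44.7, 59.7 and 29.2 CPM in WT, against 90.2, 72.7 and 139.5 CPM in CRY1 KO, with a difference of 1.18 (edgeR adjusted p = 0.147; DESeq2 0.000848). Edem3, a gene for the trimming of mannose from misfolded glycoproteins, lay at 22.4 to 24.05 CPM in WT, against 29.9 to 34.3 CPM in CRY1 KO (0.45, edgeR adjusted p = 0.0511). It passed by DESeq2, without WT 3 (0.0456) and at a minimum count of 50 (0.0477). Cnpy2 lay the other way at -0.32 (edgeR adjusted p = 0.0881, and 0.0489 without WT 3; DESeq2 0.0251). Without WT 3 the list had 4 called genes of 54, where 844 of 13976 were called over all tested genes. Without WT 1 it had 1, where 565 of 13987 were called.

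**Figure D4:**
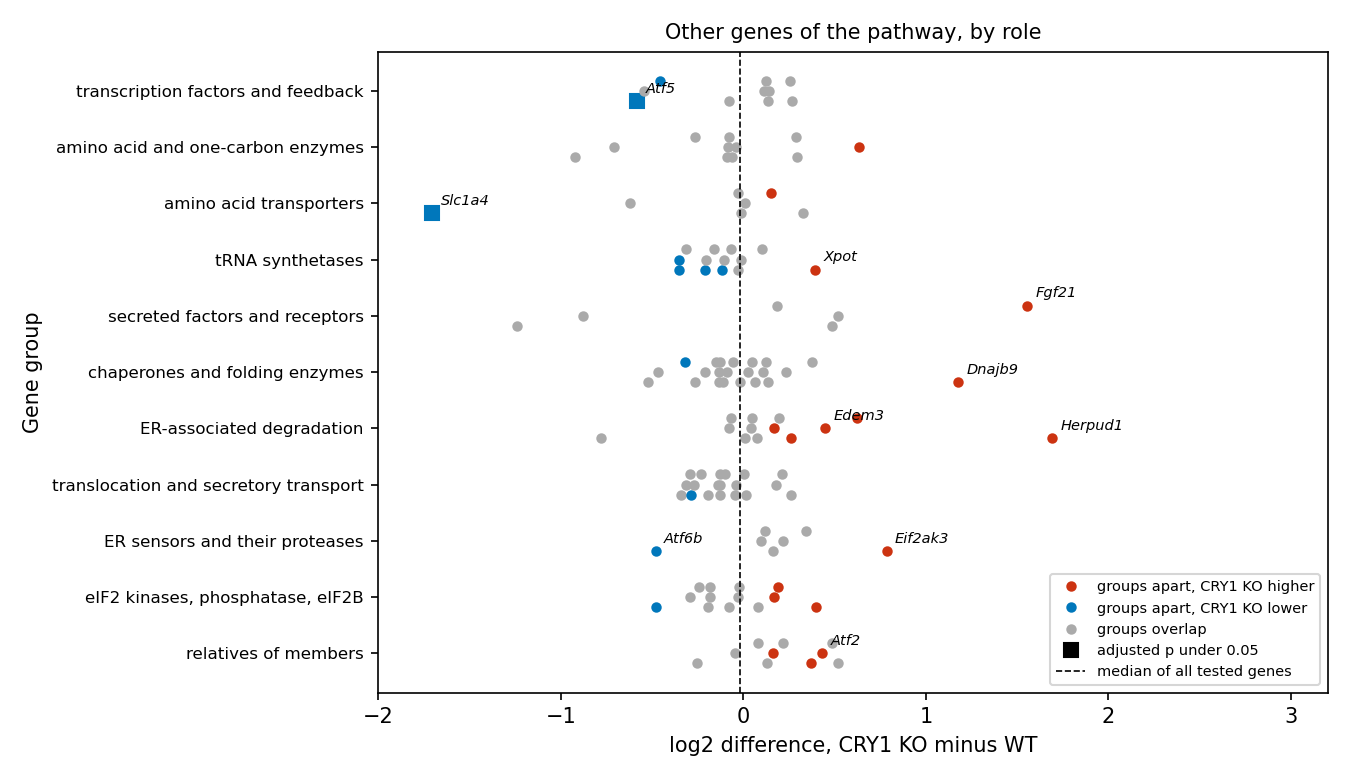
Log2 difference of CRY1 KO minus WT (x axis) for the tested genes of each pathway group (y axis); each point is a gene, coloured by whether the 3 libraries of each group lie apart, squares passed the edgeR test, and the dashed line is the median of all tested genes (-0.019). Slc1a4 and Atf5 are the squares, and Herpud1, Fgf21 and Dnajb9 lie farthest to the right.

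Of 20 genes for the sensors and the eIF2 machinery 0 passed by edgeR, with 6 at an unadjusted p under 0.05 (20.7% over all tested genes), 3 called by DESeq2 (9.06%) and 0 by limma-voom. The genes called by DESeq2 were Atf6b, Eif2ak3 and Ppp1r15b. The median difference of the 20 was 0.030, with 10 positive and 10 negative. Eif2ak3, the gene of PERK, stood at 12.03, 12.8 and 11.9 CPM in WT, against 20.3, 14.4 and 28.6 CPM in CRY1 KO, with groups that did not overlap (0.78, SE 0.23; edgeR adjusted p = 0.117). Atf6b, a relative of Atf6, had a difference of -0.48 (adjusted p = 0.0862, and 0.0198 without WT 3), while Atf6 itself had 0.12 and Ern1, the gene of IRE1, 0.34 with overlapping groups. Ppp1r15b, a subunit of the phosphatase that removes phosphate from eIF2 in resting cells, had 0.40 (adjusted p = 0.0711), and Eif2ak2, the interferon-inducible eIF2 kinase PKR, -0.48 (0.121). In the list of 10 relatives of the members 0 passed by edgeR, 2 had an unadjusted p under 0.05, and DESeq2 called 1 (Atf2) and limma-voom 0. Their median was 0.19, with 8 positive, beside -0.019 and 6537 of 13816 over all tested genes. The groups did not overlap for 3 of the 10, where 27.3% of all tested genes had groups apart. The sestrin gene Sesn1 had 0.37, with 8.61 to 10.7 CPM in WT, against 11.2 to 14.6 CPM in CRY1 KO (adjusted p = 0.191), and Sesn3 had 0.13. Trib1 and Trib2 had 0.16 and 0.52, and Atf2 had 0.43 (adjusted p = 0.0524, and 0.0357 without WT 3).

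Among the genes outside the 10, those whose levels followed Hspa5 closely over the 6 libraries included Dhdds, Gbp5, G6pdx and Pold2, with Pearson r from 0.984 to 0.999. For Asns they were Rpl23, Cdc6, 1700037H04Rik, Cd4 and Castor2, with r from 0.982 to 0.997. These values describe 6 points that share library and depth. They reached over 0.95 for 25 genes with Hspa5 and 24 with Asns.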

How the data were processed

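The deposited table holds whole numbers per gene for 6 libraries, taken here as estimated counts because StringTie is named and the authors' step that made them is not given in the sources used here. The submitters' processing notes name genome build GRCm39, HISAT2 2.2.1 and StringTie 2.1.7, along with limma 3.42.2 and Trim Galore 0.6.7. Per the labels' protocols, polyadenylated RNA was sequenced from a stranded kit.

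Genes were filtered with filterByExpr (minimum count 10, minimum total 15), scaled by TMM and compared with edgeR 4.0.16 (quasi-likelihood, robust) in R 4.3.3, with Benjamini-Hochberg adjustment over all 13816 tested genes. SE and 95% intervals come from that fit. Alternatives used DESeq2 1.42.0, limma 3.58.1 (voom), other scalings and filters, a replicate block and each library left out. Log2 CPM for principal components and correlations used a prior count of 2.

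The members and gene lists were chosen with earlier results of these data known. Of the list entries 11 matched through another RefSeq symbol. Genes named beyond the members are every called gene and up to 4 of smallest p in each list, and the 5 most correlated with Hspa5 and Asns (1 of these is not reported here), with others picked after their values were seen. Markers not in the table were not analysed here.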

Additional observations from a re-analysis of the deposited data

How the results depend on the processing

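The number of genes called among all tested was 113 with no scaling beyond the library total and 1252 by DESeq2, and leaving out each library gave 17 to 844. Of the 5 ATF4 branch members 0 were called without scaling and 1 each with upper-quartile scaling and limma-voom (main value 2, leave-one-out 0 to 3). Of the 5 ER branch members DESeq2 called 1 (main value 0, leave-one-out 0 to 1). In the ATF4 target list (main value 2) RLE scaling gave 1, DESeq2 5 and limma-voom 0, with leave-one-out 0 to 6. In the list of the unfolded protein response (main value 0) a minimum count of 50 gave 1, DESeq2 4 and limma-voom 1, with leave-one-out 0 to 4.

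Same-numbered libraries did not deviate together (correlations -0.066, -0.014 and 0.070), only replicate 3 correlated best with its own number, and the libraries share only a number. With the replicate block the calls were 94 over all genes, 0 of the ATF4 branch, 0 of the ER branch, 1 of the ATF4 target list and 0 of the other list.

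Signs turned under some settings for genes near 0. Over the libraries left out the log2 difference ran from -0.19 to 0.088 for Cry1, from -0.32 to 0.19 for Trib3, from -0.35 to 0.038 for Hspa5, from -0.27 to 0.13 for Hsp90b1, from -0.20 to 0.018 for Pdia4 and from -0.44 to 0.49 for Creld2, which was 0.025 by limma-voom and 0.0076 with the replicate block. Among the members, Atf4, Ddit3, Sesn2, Asns and Xbp1 kept their direction in every alternative run. Fits with a library left out also have fewer libraries, and the cause of each lost call was not tested. Depth was low for Fgf21, with 11 to 110 estimated counts a library.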
